A study of Mus musculus with 2 samples.

Results

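Type 1 conventional dendritic cells were examined in the metastatic mouse lung, as single droplets that passed a UMI rule for the genes Xcr1 and Clec9a. A UMI (unique molecular identifier) counts 1 captured RNA molecule. A droplet was a member if it held 2 or more UMIs of Xcr1 and Clec9a together, fewer than 10 UMIs of the macrophage genes C1qa, C1qb, C1qc and Ms4a7 together, and fewer than 3 UMIs of Ccr7, among barcodes in which 200 genes or more were detected and no more than 10% of UMIs were mitochondrial. The rule found 90 members among 6621 kept barcodes, 68 in the distal and 22 in the niche library. Both libraries held immune cells sorted from lungs of female Balb/c mice, taken 7 days after labelling-4T1 cells were given into a vein. 4T1 cells come from a mammary carcinoma of Balb/c mice and colonise the lung. No group without tumour cells was analysed here. The distal library was made from distal lung immune cells and the niche library from niche immune cells, with 1 library in each group. Neither the sort gates nor the age and number of the mice are stated in the labels. Since each group was 1 library, no difference has a replicate check or a test, and library and group cannot be told apart. Intervals are 95% intervals and cover counting error only.

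Type 1 conventional dendritic cells take up dead cells and present their antigens on class I molecules to CD8 T cells, a process called cross-presentation. They depend on the transcription factors Batf3, Irf8 and Id2 and on the growth factor receptor Flt3. Xcr1 is the receptor for the chemokine Xcl1 made by T and NK cells, and Clec9a (DNGR-1) binds actin filaments exposed by dead cells. In the lung, resident type 1 dendritic cells are known for the integrin CD103, encoded by Itgae, and for langerin, encoded by Cd207.

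The distal library was shallower, with a median of 5794.5 UMIs per kept barcode against 11197 in the niche library, whereas the members were closer in depth, with medians of 10333 and 11805. The members ranged from 1481 to 23087 UMIs in the distal and from 6495 to 20823 in the niche library. The matrices were counted with different software versions and gene lists, and 7.18% of 3105 genes compared in members were linked to that difference, by exon overlap with a gene held by 1 list only or by a like shift in unrelated cells. Of the barcode sequences, 4 were kept in both libraries, 1 of which was a member in 1 library.

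The data went against the label in the niche library. In the distal library 59 of 68 members held an Xcr1 UMI, and a member had a median of 5.5 UMIs of the 2 rule genes. In the niche library only 7 of 22 members held an Xcr1 UMI. The other 15 passed on Clec9a alone, 12 of them with exactly 2 UMIs, and the median over all 22 was 2. Of those 15, 12 held 3 or more UMIs of Csf1r and Fcgr1, which encode the macrophage growth factor receptor and a high-affinity Fc receptor. Of the remaining 3, 2 held 3 or more UMIs of Siglech, a surface lectin of plasmacytoid dendritic cells. At least 4 of the 7 genes Batf3, Wdfy4, Flt3, Itgae, Tlr3, Zbtb46 and Ifi205 were detected in 46 of the 59 distal members with Xcr1, in 5 of the 7 niche members with Xcr1 and in 0 of the 15 niche members without it. Irf8, Naaa and Cadm1 are not among those 7 and were found in 14, 12 and 10 of those 15 members. The monocyte and macrophage genes were rare where Xcr1 was present in the distal library, where 2 of those 59 members reached 3 UMIs of Csf1r and Fcgr1.

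**Figure D1:**
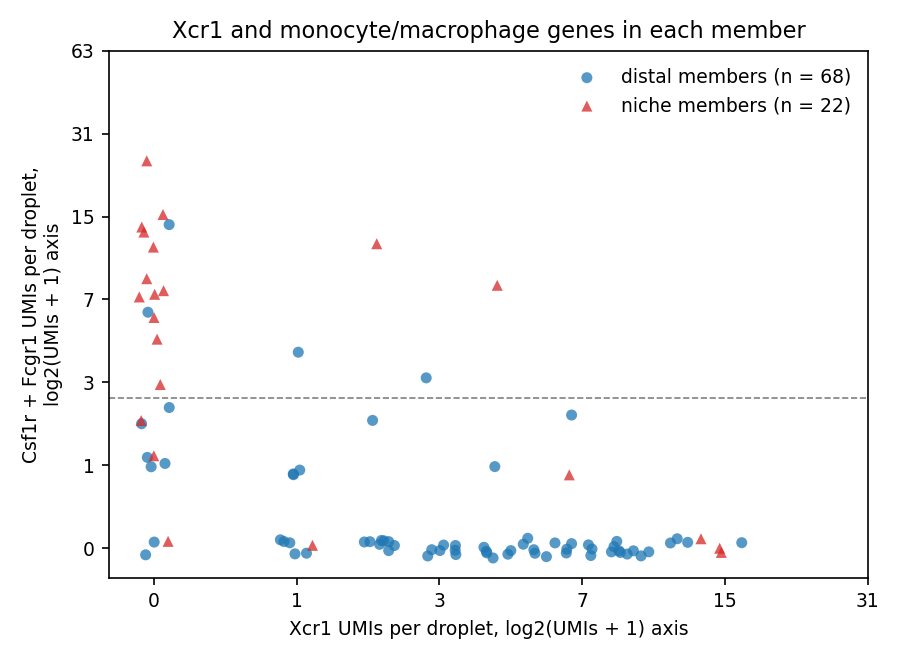
Xcr1 UMIs (horizontal axis, log2 of UMIs + 1) against the sum of Csf1r and Fcgr1 UMIs (vertical axis, log2 of UMIs + 1) in each of 68 distal and 22 niche members, slightly jittered. The dashed line separates members with 3 or more monocyte and macrophage UMIs. Most niche members stand at 0 Xcr1 UMIs above that line, whereas most distal members lie along the bottom.

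Of the 9 distal members without Xcr1, 2 held 3 or more UMIs of Csf1r and Fcgr1, 1 held 3 or more of Siglech, and 1 had at least 4 of the 7 genes above. Their median of Lyz2, the lysozyme gene of monocytes and macrophages, was 53 UMIs against 4 in the distal members with Xcr1. Clec9a UMIs were not rare in other cells. In macrophage droplets, which held 10 or more UMIs of the macrophage genes, 15.7% (12.6% to 19.4%) of 470 distal and 29.9% (27.96% to 31.8%) of 2200 niche droplets had a Clec9a UMI, at median depths of 8079.5 and 13307.5 UMIs. The level there was 29.3 CPM (UMIs of the gene per 1e+06 UMIs) in the distal and 36.6 CPM in the niche library, against 0.833 and 6.74 CPM in T cell droplets and 53.1 and 52.5 CPM in plasmacytoid droplets. The T cell and plasmacytoid droplets were counted without the members, which limits their Clec9a level, whereas no macrophage droplet could be a member. Xcr1 was lower in macrophages, at 8.83 and 12.2 CPM, against 460 and 580 CPM in members with Xcr1. The members are therefore described below both as the rule gives them and as the 59 distal and 7 niche members with Xcr1, a subset chosen after the values were seen. Xcr1 itself chose that subset, so its levels there are a description.

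The threshold of the rule cut through a range. Exactly 2 UMIs of the rule genes were held by 12 distal and 12 niche members, and 1 UMI, just outside, by 61 distal and 69 niche droplets, of which 14 and 4 had their UMI in Xcr1. The macrophage maximum applied to 35 distal and 356 niche droplets, whatever their Ccr7, and 148 of those niche droplets held an Xcr1 UMI. Of the latter, 31 had 4 or more Xcr1 UMIs, with a median of 24922 UMIs in all. Their summed level was 3792 CPM over the 29 genes of the type 1 identity list and 13614 CPM over 10 macrophage markers, 4 of which the rule limits, against 9188 and 468 CPM in niche members with Xcr1. In the distal library 2 such droplets were removed. The Ccr7 maximum removed 4 droplets in each library.

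Among the transcription factors, Irf8 stood at 1929 CPM in distal and 1587 CPM in niche members with Xcr1, and at 628 CPM in niche members without it. Every member with Xcr1 had an Irf8 UMI, with a median of 18 UMIs and a range of 1 to 61 in the distal library and a median of 21 and a range of 6 to 49 in the niche library. Batf3 was at 197 CPM in the distal and 102 CPM in the niche members with Xcr1, a log2 ratio of -0.89 (-2.05 to -0.02) that rests on 10 niche UMIs. Id2, an inhibitor of E proteins needed for this lineage, was at 1198 and 763 CPM. Zbtb46, a transcription factor of conventional dendritic cells, was at 48.8 and 71.2 CPM in members with Xcr1 and had 0 UMIs in the niche members without it, which allows a level of up to 17.9 CPM.

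Among the receptors and adhesion molecules, Flt3 was at 78.7 CPM in distal and 112 CPM in niche members with Xcr1, and at 11.96 CPM in niche members without Xcr1. Itgae was at 159 and 142 CPM in members with Xcr1 and had 0 UMIs in the 15 niche members without it. Cadm1, an adhesion molecule of this lineage, was found in all 7 niche members with Xcr1, at 376 CPM against 217 CPM in the distal library. It was also found in 10 of the 15 niche members without Xcr1, with a median of 2 UMIs. That median was 2 in distal and 5 in niche members with Xcr1. Cadm1, Itgae and Wdfy4 are among the genes linked to the difference in gene lists. Tlr3, the endosomal receptor for double-stranded RNA, had the lowest ratio of niche over distal members with Xcr1 among the 25 measured identity genes. It was detected in 37 of 59 distal members with Xcr1, at 116 CPM (91.5 to 146), and in 1 of 7 niche members, with 1 UMI or 10.2 CPM (0.258 to 56.7). The gene lies on chromosome 8 at 45395665 to 45411080 on the minus strand of GRCm38. Its log2 ratio was -2.94 (-8.84 to -0.99), a wide interval because 1 niche UMI stands behind it. No shift in unrelated cells could be computed for Tlr3, because its UMIs there were too few. Whether the libraries shift this gene alike in other cells was therefore not tested.

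Wdfy4 and Naaa, both on the identity list, were higher in members with Xcr1 than in niche members without it. The class I and cross-presentation list was not, with a summed level of 17522 CPM in niche members with Xcr1 and 22153 CPM without. Wdfy4, which is required for cross-presentation of cell-borne antigens, was at 315 and 254 CPM in distal and niche members with Xcr1 and at 11.96 CPM in niche members without it. Naaa, a lysosomal amidase abundant in these cells, was at 1779 and 1201 CPM against 209 CPM. All 66 members with Xcr1 had a Naaa UMI, with medians of 17 UMIs in 59 distal and 15 UMIs in 7 niche members.

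Compared with other cells of the same library, the distal members with Xcr1 stood apart from type 2 dendritic cells, which were chosen by Cd209a, Clec10a and Mgl2. Those 63 droplets were mixed. The monocyte markers summed to 10548 CPM there and to 1639 CPM in the distal members with Xcr1. However, 3 or more UMIs of those markers were held by 58 type 2 droplets and, alike, by 57 of the 59 members. For the plasmacytoid markers, 3 or more UMIs were held by 20 type 2 droplets and 1 member. Over 24 identity genes measured, the median log2 difference was 1.88, and 21 genes were more than 2-fold higher in members and 1 more than 2-fold lower. Against migratory dendritic cells, chosen by Ccr7, the median was 1.53 over 25 genes, with 17 past 2-fold, and against macrophages it was 3.36 over 25 genes, with 22 past 2-fold. Naaa was 2.55 (2.31 to 2.80) and Itgae 3.16 (2.25 to 4.401) higher on the log2 scale than in type 2 cells, and Tlr3 3.79 (2.54 to 5.87). Against migratory cells 4 of the 25 genes were not higher in members: Ly75 was -1.69 (-2.56 to -0.89), Nfil3 -1.57 (-2.40 to -0.78), Itgax -0.49 (-1.16 to 0.21) and Id2 -0.37 (-0.53 to -0.20). In the niche library the 7 members with Xcr1 were 1.88 higher than type 2 cells at the median of 16 identity genes, with 12 past 2-fold. No share of all genes past 2-fold is given for these comparisons with other cells, so the counts are a description. Batf3 did not separate them there: its level was 102 CPM in members and 124 CPM in type 2 cells, a log2 difference of -0.23 (-1.46 to 0.78).

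**Figure D2:**
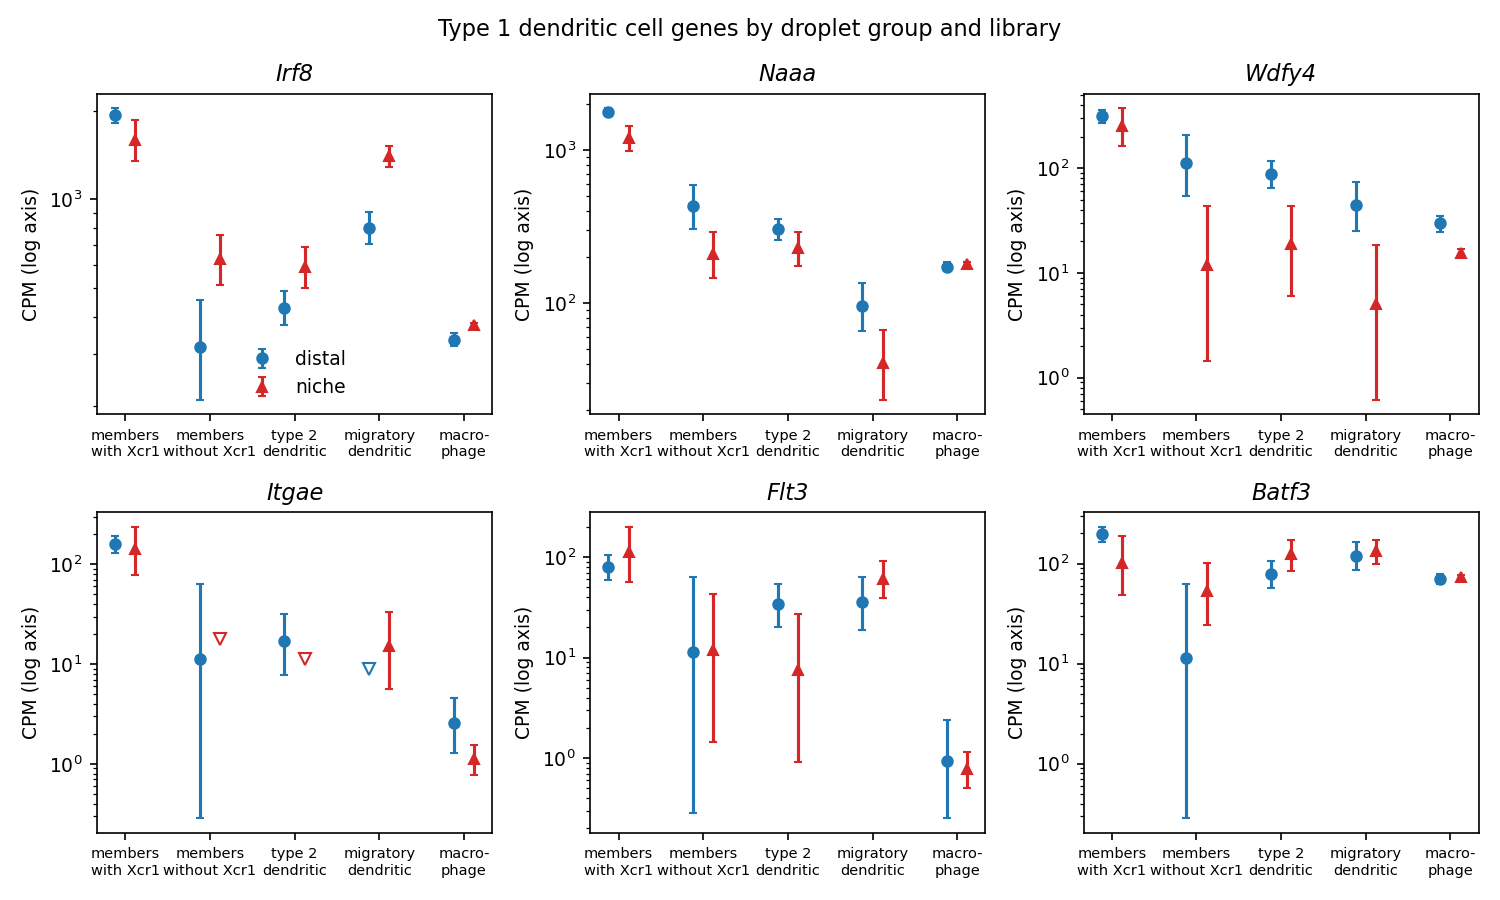
Levels in CPM (log axis, 95% Poisson intervals for counting error) of Irf8, Naaa, Wdfy4, Itgae, Flt3 and Batf3 in members with and without Xcr1, type 2 and migratory dendritic cells and macrophages, for the distal (blue circles) and niche (red triangles) libraries. Open downward triangles mark groups with 0 UMIs, drawn at the level of 3 UMIs. Members with Xcr1 hold the highest Naaa, Wdfy4 and Itgae in both libraries, while the niche members without Xcr1 lie near the macrophages for Naaa and Wdfy4.

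By the rule, members were 1.92% (1.49% to 2.43%) of 3540 distal and 0.714% (0.448% to 1.08%) of 3081 niche barcodes, a ratio of niche over distal of 0.372 (0.219 to 0.609). With at least 1 Xcr1 UMI asked of each member, 59 and 7 members remained and the ratio was 0.136 (0.0525 to 0.299). After thinning every barcode to 3000 UMIs, which removes the difference in depth and leaves out 956 distal and 519 niche barcodes, the ratio was 0.151 (0.0524 to 0.359) by the rule and 0.106 (0.0275 to 0.295) with Xcr1. With no macrophage maximum it turned to 3.95 (3.16 to 4.98), with 102 distal and 351 niche droplets once the other limits were kept. Macrophage droplets made up 13.3% of distal and 71.4% of niche barcodes. Over the same barcodes, type 2 dendritic cells were 1.78% of the distal and 0.876% of the niche library, and migratory dendritic cells 1.24% and 1.46%. The part of the macrophage share in the members' share was not tested. The direction of the difference therefore depended on how droplets with macrophage RNA were treated.

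**Figure D3:**
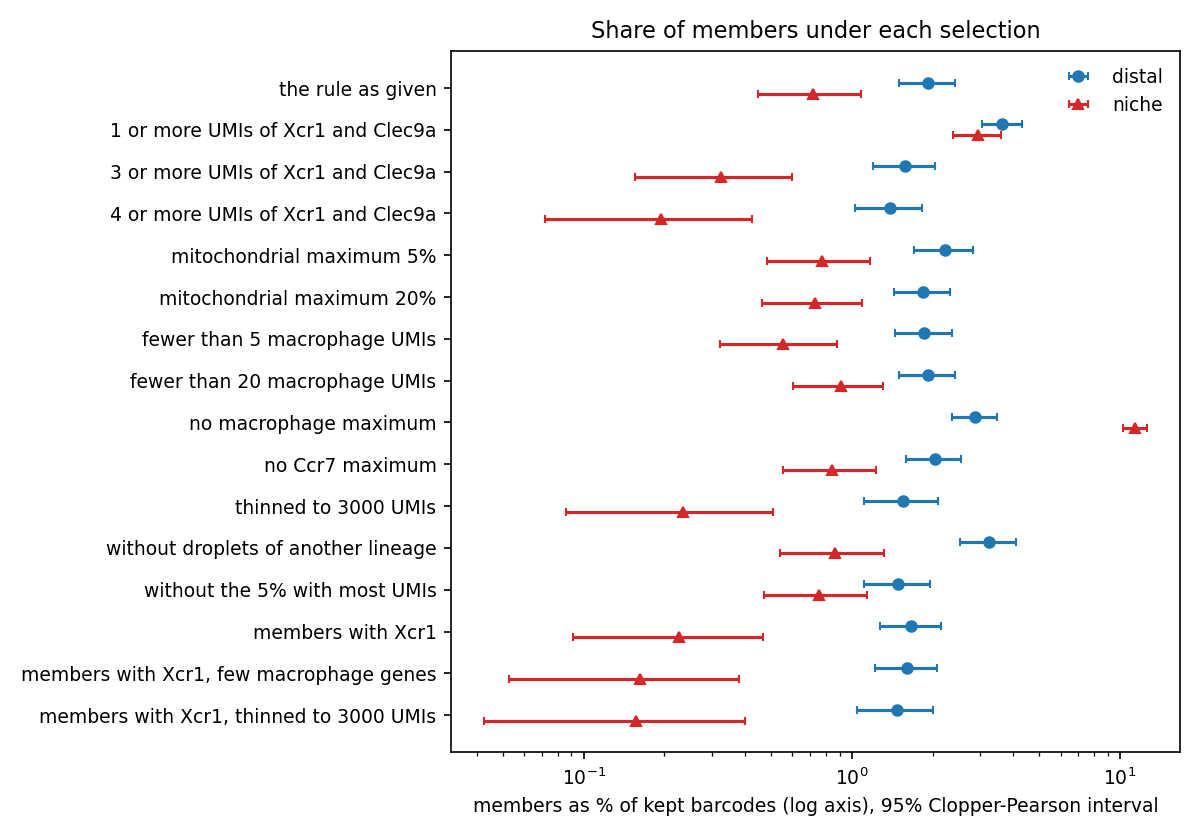
Members as a percentage of kept barcodes (log axis) in the distal (blue circles) and niche (red triangles) libraries under the rule and each other selection, with 95% Clopper-Pearson intervals. The niche share lies below the distal share in every selection but 1, the one without a macrophage maximum, where it is 11.4% against 2.88%.

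Between niche and distal members as the rule gives them, the 8 monocyte markers summed to 3056 CPM in the distal and 6347 CPM in the niche library, and the 10 macrophage markers, 4 of which the rule limits, to 486 and 1872 CPM. The 8 alveolar macrophage markers went the other way, at 315 and 18.8 CPM, and the 29 type 1 identity genes were at 9742 and 5409 CPM. Of 3105 genes with at least 40 UMIs, 264 (8.5%) were at least 2-fold higher in niche members and 241 (7.76%) at least 2-fold lower. In the type 1 identity list, 14 of 25 measured genes were at least 2-fold lower and 2 at least 2-fold higher, with a median of -1.25, against 9.68% lower and 9.53% higher over 5060 genes with at least 20 UMIs. The 12 leading genes higher in the niche were Ccl5, Slc11a1, Tnfaip2, Creb5, Cox6a2, Cd63, Lst1, Emb, Fcgr3, Blvrb, Ly6c2 and Gbp2. Ly6c2, a surface protein of classical monocytes, was at 41.4 CPM in distal and 283 CPM in niche members, and Fcgr3, an Fc receptor, at 84.3 and 603 CPM. Slc11a1, a metal transporter of the phagosome, was at 9.67 and 173 CPM, and Cox6a2, a gene on the plasmacytoid marker list, at 16.6 and 188 CPM. Among the 12 leading genes lower in the niche were Hspa1a, Tlr3, Hspa1b, Cxx1b, Smc4, Crip1, Unc119, Ckb, Naaa, Id2 and Anxa2. Naaa, on chromosome 5 at 92257659 to 92278170, had a log2 ratio of -1.48 (-1.74 to -1.24), and Ckb, a creatine kinase of this lineage, -1.55 (-1.85 to -1.28). The share of members without Xcr1 also differed, at 9 of 68 in the distal and 15 of 22 in the niche library. Its part in these differences was not tested.

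Among members with Xcr1 fewer genes were past 2-fold. Of 2303 genes with at least 40 UMIs, 99 (4.3%) were at least 2-fold higher in the niche and 183 (7.95%) at least 2-fold lower. The identity list then had a median of -0.27, with 1 of 25 genes past 2-fold in each direction, against 6.74% higher and 12.6% lower over 3975 genes with at least 20 UMIs. In both libraries the T cell markers were at or near 0, with 7 of 8 markers at 0 in distal and 8 of 8 in niche members with Xcr1. The macrophage marker list summed to 110 CPM, with 1 of 10 at 0 and 0 to 13 UMIs per droplet, in the distal and 468 CPM, with 1 of 10 at 0 and 0 to 22 UMIs per droplet, in the niche members with Xcr1. Without the 2 niche and 2 distal members that held 3 or more UMIs of Csf1r and Fcgr1, those sums were 90.1 CPM in the distal and 30.9 CPM in the niche library. Fcgr1 is 1 of the 10 markers summed, so this choice of droplets lowers the sums in part by itself.

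Several of the leading genes in members with Xcr1 rested on 1 droplet of the 7. Mt1, a metal-binding stress protein, was at 239 CPM in distal and 1536 CPM in niche members, a log2 ratio of 2.68 (2.35 to 3.017). However, 104 of its 151 niche UMIs came from 1 droplet, and the other 6 held 18, 14, 7, 5, 3 and 0 UMIs. Lyz2 was at 831 and 2717 CPM, with 208 of 267 niche UMIs from 1 droplet, and Lst1 at 61.4 and 417 CPM, with 34 of 41. Both came from the same niche droplet, which also held 52 of the 107 Fcer1g UMIs.

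Irf1, a transcription factor induced by interferon gamma, was spread more evenly. It was at 115 CPM in the distal and 468 CPM in the niche members with Xcr1, a log2 ratio of 2.03 (1.46 to 2.58), with 18, 13, 7, 3, 3, 2 and 0 UMIs in the 7 niche members. In the distal library 29 of 59 members held an Irf1 UMI, with a highest value of 9, so the ranges overlapped. The median change of Irf1 over T cell, B cell, neutrophil and macrophage droplets was 0.13. Nfe2l2, a regulator of the response to oxidative stress, was at 81.9 and 285 CPM and was found in 6 of 7 niche members. Without the members that held 3 or more UMIs of Csf1r and Fcgr1, 57 distal and 5 niche members remained. Mt1, Irf1 and Nfe2l2 then led the genes higher in the niche, with log2 ratios of 3.16, 2.27 and 1.98. Of the 134 niche UMIs of Mt1 there, 104 came from 1 droplet. Of the 36 of Irf1, 18 came from 1 droplet and 13 from another. In that comparison 78 of 2112 genes (3.69%) were at least 2-fold higher and 253 (12%) at least 2-fold lower.

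Of the genes lower in niche members with Xcr1, Hspa1a, a heat shock chaperone, was at 159 CPM in the distal library and had 0 UMIs in the niche, which allows up to 30.5 CPM. Of the 101 distal UMIs, 53 came from 1 droplet and only 12 of 59 distal members held any. Plac8 was at 338 and 40.7 CPM, with UMIs in 20 of 59 distal and 2 of 7 niche members. S100a10, a calcium-binding protein that pairs with annexin A2, was at 370 and 132 CPM and was found in 43 of 59 and 4 of 7 members. Other leading genes were the respiratory complex I genes Ndufs8 and Ndufc1, Dctpp1, Gmnn, Cxx1b and Tagln2, with log2 ratios from -2.42 for Ndufs8 to -1.02 for Tagln2.

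Antigen presentation genes differed little. In the class I and cross-presentation list the median log2 ratio was 0.24 over 22 genes in all members and -0.01 in members with Xcr1, and in the class II list 0.04 and 0.23 over 13 genes. H2-Aa, an alpha chain of the class II molecule, was at 9356 CPM in distal and 10216 CPM in niche members with Xcr1, with a median log2 change of 1.07 over T cell, B cell, neutrophil and macrophage droplets. Among the costimulatory genes, Cd86 was at 249 and 326 CPM and Cd83 at 449 and 621 CPM. The median of that list was 0.41 over 13 genes. Of these, 1 (7.69%) was past 2-fold, near the 6.74% higher over all genes with at least 20 UMIs. The gene past it was Il1b, which encodes a pro-inflammatory cytokine, at 704 and 1516 CPM, with UMIs in 36 of 59 distal and 6 of 7 niche members. Il12b, a subunit of a cytokine that these cells are known for, had 4 distal UMIs and 1 niche UMI, too few to compare.

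Genes of the interferon gamma response were higher in niche members, with a larger median over all members than over those with Xcr1. In all members 19 of 24 measured genes were at least 2-fold higher and 0 lower, with a median log2 ratio of 1.94. In members with Xcr1 it was 8 of 18 and 0, with a median of 0.80, and without the members rich in macrophage genes 6 of 15 and 0, with a median of 0.43. Over all genes with at least 20 UMIs, 9.53%, 6.74% and 6.23% were at least 2-fold higher in these 3 sets. Gbp2, an interferon-induced GTPase on chromosome 3 at 142620602 to 142638008, was at 35.9 and 252 CPM in all members and at 17.3 and 81.4 CPM in members with Xcr1, where 8 niche UMIs stand behind it. Without the members rich in macrophage genes 2 of those UMIs remained, at 9.83 and 30.9 CPM. Cxcl9, a chemokine that attracts T cells, was at 627 and 1750 CPM in members with Xcr1, a log2 ratio of 1.48 (1.22 to 1.74). The median change of Cxcl9 over T cell, B cell, neutrophil and macrophage droplets was larger, 2.72. For Cxcl10 those values were 2.36 in members with Xcr1 and 1.73 in the other droplets, and for Cxcl16 1.15 and 1.96. The part of this shared shift in the members' values was not tested. Type I interferon genes had a median of 1.25 in all members, with 15 of 24 past 2-fold, but -0.05 in members with Xcr1, with 1 of 14 at least 2-fold higher and 2 lower. Isg15, an interferon-induced modifier protein, was at 162 CPM in distal and 102 CPM in niche members with Xcr1. Without the members rich in macrophage genes 1 niche UMI of Isg15 remained, at 151 and 15.4 CPM.

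Maturation genes had a median of 0.56 in all members, 0.79 in members with Xcr1 and 0.86 in the smallest set, with 6 of 14 genes at least 2-fold higher and 1 lower in members with Xcr1 and 6 of 13 and 1 in the smallest set, against 6.74% higher and 12.6% lower over all genes in members with Xcr1 and 6.23% and 14.7% in the smallest set. Marcksl1, an actin regulator, was at 124 and 326 CPM, and the serpin genes Serpinb6b and Serpinb9 were at 113 and 265 CPM and at 55.1 and 142 CPM. Of the 26 niche UMIs of Serpinb6b, 17 came from 1 droplet, which also gave 10 of the 14 Serpinb9 UMIs. Ccl5, the leading gene in all members, was nearly absent in members with Xcr1, with 2 distal and 4 niche UMIs. Among receptors for cytokines and growth factors the median was 0.70 over 12 genes in members with Xcr1, with 3 at least 2-fold higher, against the same 6.74%. In the smallest set the median of that list was 0.77, with 1 of 10 genes at least 2-fold higher, against 6.23%.

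**Figure D4:**
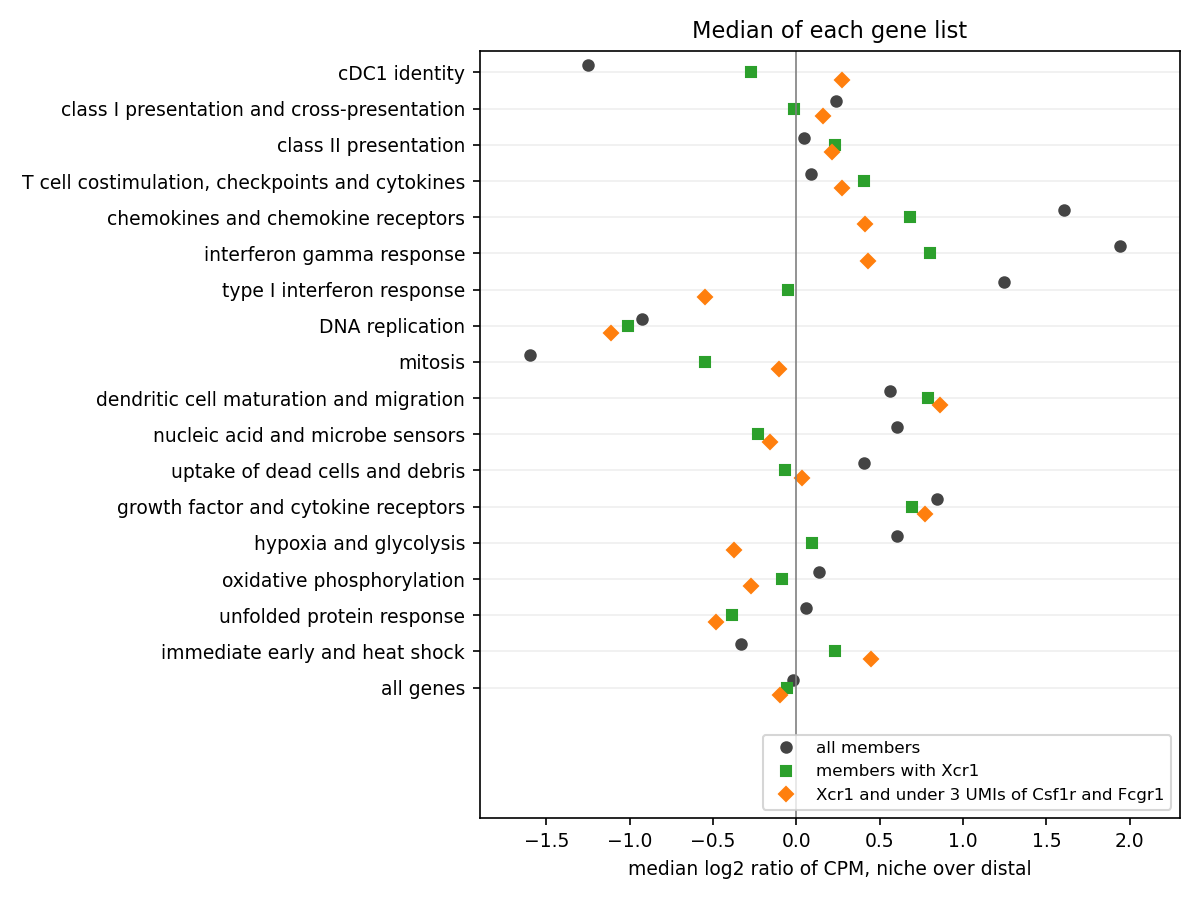
Median log2 ratio of CPM, niche over distal, for each of 17 gene lists and for all genes with at least 20 UMIs, in all members (grey circles), members with Xcr1 (green squares) and members with Xcr1 and fewer than 3 UMIs of Csf1r and Fcgr1 (orange diamonds). The identity, interferon and mitosis lists move toward 0 from all members to members with Xcr1, while the DNA replication list lies between -0.93 and -1.11 in the 3 sets.

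Transcripts of mitosis genes were found in many distal members. After thinning to 3000 UMIs, 18 of 67 distal members (26.9%, 16.8% to 39.1%) held 3 or more UMIs over 26 mitosis genes, against 1 of 22 niche members (4.55%, 0.115% to 22.8%). Without thinning it was 26 of 68 (38.2%) and 3 of 22 (13.6%). All 18 distal droplets were members with Xcr1, where the shares were 31.03% of 58 (19.5% to 44.5%) in the distal library and 14.3% of 7 (0.361% to 57.9%) in the niche, intervals that overlap. Without thinning they were 44.1% of 59 and 42.9% of 7. In the same distal library the thinned share was 8.06% of 62 (2.67% to 17.8%) type 2 cells, 0 of 42 (0% to 8.41%) migratory cells and 10.8% of 455 macrophages. T cell droplets there had a thinned share of 33.1% of 242 (27.2% to 39.4%), so a high share was not particular to the members. Mki67, a marker of cycling cells, had UMIs in 18 of 59 distal and 3 of 7 niche members with Xcr1. Top2a, the topoisomerase that untangles replicated DNA, was at 241 and 153 CPM there. In the 7 niche members 148 of the 159 UMIs of the mitosis genes, and 14 of the 15 of Top2a, came from 1 droplet. DNA replication genes were lower in the niche in members with Xcr1, at least 2-fold in 9 of 17 measured genes, with a median of -1.01, against 12.6% lower over all genes. In all members the replication median was -0.93, and without the members that held 3 or more mitosis UMIs it turned to 0.78, over only 5 measured genes. Tyms, which makes thymidylate, was found in 21 of 59 distal and 2 of 7 niche members.

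Within the distal members with Xcr1, 2 groups of droplets could be told by Ly6a, an interferon-inducible surface protein also called Sca-1. This split was chosen after the values were seen and is a description. Of the 59, 22 held 3 or more Ly6a UMIs (37.3%, 25.04% to 50.9%; median 15, highest 80), 2 held 1 UMI each and 35 held none. Cxcl9 was found in 21 of the 22, with 3 or more UMIs in 16, and in 7 of the 35, none of which reached 3. Cd207 showed the opposite pattern, in 3 of the 22 and 26 of the 35 droplets, and Itgae was found in 9 and 26. The groups differed in depth, with medians of 13342 and 7794 UMIs, and the part of depth in these counts of droplets was not tested. As levels, which do not scale with depth, Cxcl9 was at 1376 CPM with Ly6a and 27.2 CPM without, and Cd207 at 14.1 and 444 CPM. In the niche 5 of 7 members with Xcr1 held 3 or more Ly6a UMIs, all 5 with Cxcl9. The other 2 held no Ly6a UMI but 18 and 1 UMIs of Cxcl9, so in the niche Cxcl9 was found in droplets of both kinds. Ly6a itself shifted by 1.40 in unrelated droplets between the libraries. Ly6a UMIs were also found in 36.5% of 63 distal type 2 cells and 43.6% of 470 distal macrophages.

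**Figure D5:**
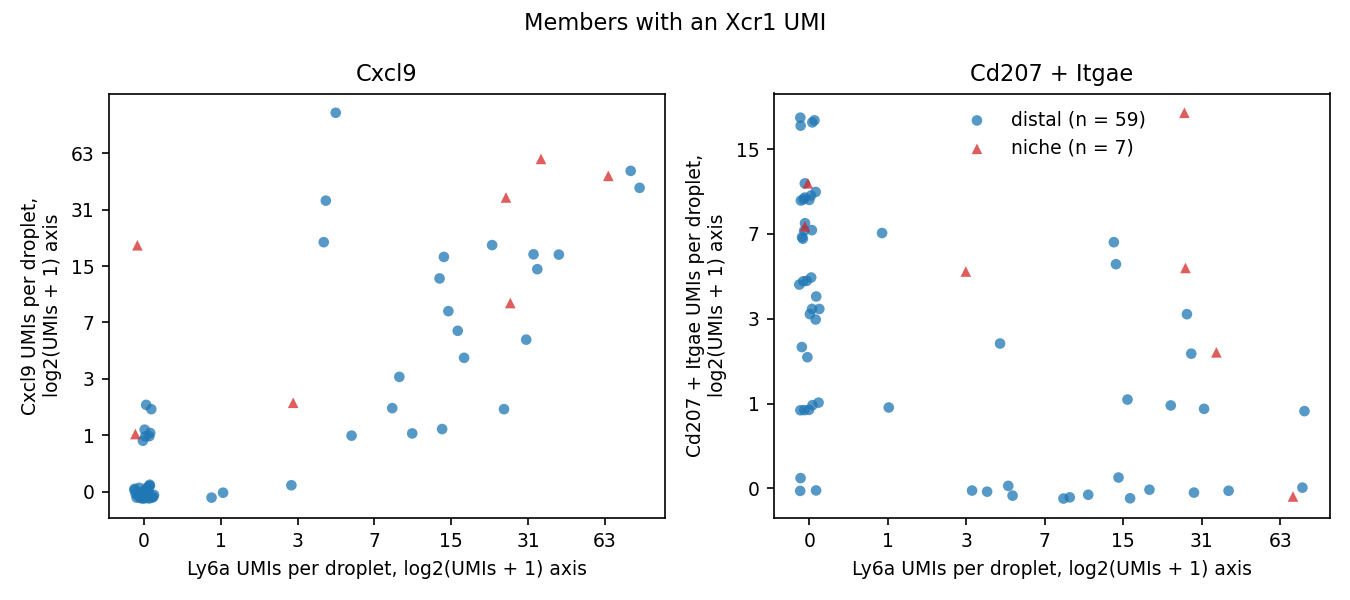
UMIs of Cxcl9 (left) and of Cd207 and Itgae together (right) against Ly6a UMIs in each of 59 distal (blue circles) and 7 niche (red triangles) members with Xcr1, all axes log2 of UMIs + 1, slightly jittered. Distal droplets with Ly6a carry Cxcl9 and mostly few Cd207 and Itgae UMIs, and droplets at 0 Ly6a the reverse. In the niche droplets both occur together in 4 of 5 with Ly6a.

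Of 1961 genes with at least 40 UMIs in these 2 groups of distal droplets, 123 (6.27%) were at least 2-fold higher with Ly6a and 120 (6.12%) at least 2-fold lower. Besides Cxcl9, the leading genes were Serpina3g, a serpin of activated cells, at 294 and 3.023 CPM, and Iigp1, an interferon-induced GTPase, at 237 and 6.05 CPM. Plac8, Ifi47, Serpinb6b, Zbp1, Ppa1, Lap3, Txn1, Ifitm3 and Ly6e followed, from 3.71 for Ifi47 to 1.49 for Txn1 on the log2 scale. The interferon gamma list had a median of 1.61, with 10 of 16 genes at least 2-fold higher and 0 lower, and the type I list 0.91, with 7 of 14 higher and 0 lower, against 7.25% higher over all 3529 genes with at least 20 UMIs. Irf8 was at 1938 and 1965 CPM, a log2 difference of -0.02 (-0.19 to 0.15).

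Among the leading genes lower in droplets with Ly6a were, besides Cd207, Gadd45b, Ccl4, Ahnak, Trf, S100a10, Lyz2, Xlr, Ppp1r15a and Alcam. Ccl17, a chemokine for Ccr4, had 66 UMIs in droplets without Ly6a and 0 with it, but 57 of the 66 came from 1 droplet. Ahnak, a scaffold protein under the plasma membrane, was at 60.1 and 453 CPM and was found in all 35 droplets without Ly6a. Ccr2, the receptor that brings monocytes and dendritic cell precursors into tissue, was at 202 and 526 CPM. The immediate early and heat shock list had a median of -1.22, with 13 of 21 genes at least 2-fold lower and 2 higher, against 8.08% lower over all genes; Fos was at 951 and 2407 CPM. Replication genes had a median of 0.74. All 14 measured were above 0 and 5 at least 2-fold higher, against 54.8% and 7.25% over all genes. Mitosis genes had a median of -0.80, with 6 of 21 at least 2-fold lower and 0 higher, against the same 8.08% lower. By droplet, 3 or more mitosis UMIs were held by 11 of 22 with Ly6a and 13 of 35 without. For 10 or more UMIs it was 7 and 10 droplets. Single droplets held up to 131 mitosis UMIs with Ly6a and 197 without.

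Interferon-responsive genes commonly carry GAS elements, bound by STAT factors, or ISRE elements, bound by complexes of STAT and IRF factors or by IRF factors, near their start sites. Promoter windows of 300 bases from RefSeq (GRCm38.p6), 250 before to 50 after the start, were searched on both strands for TTCNNNGAA (GAS), where N is any base, and for GAAA followed by GAAA after any 2 bases (ISRE). A base may belong to more than 1 match. Over all 32851 windows 8.30% held the first and 3.44% the second. Of the interferon gamma list, 21 of 32 names had windows, 25 in all, of which 36% held the first and 48% the second. Of the type I list, 24 of 32 names had 30 windows, of which 13.3% held the first and 53.3% the second, and of the identity list 25 of 29 had 30 windows, with 10% and 6.67%. Of Ly6a and the 12 genes that led with it, 9 had 10 windows, 2 with the first and 1 with the second, and the Cxcl9 window held neither. The 4 promoters below are from genes named above, with the matched letters in capitals and all other bases in lower case, written 5′ to 3′ along each gene. Irf1 was among the 12 leading genes of niche members with Xcr1, Gbp2 among those of all niche members, and Serpina3g and Ifitm3 among those of the Ly6a droplets. They lie at chr11:53769764-53770063 on the plus strand (Irf1), chr3:142620413-142620712 on the plus strand (Gbp2), chr12:104235897-104236196 on the plus strand (Serpina3g) and chr7:141010695-141010994 on the minus strand (Ifitm3).
Irf1: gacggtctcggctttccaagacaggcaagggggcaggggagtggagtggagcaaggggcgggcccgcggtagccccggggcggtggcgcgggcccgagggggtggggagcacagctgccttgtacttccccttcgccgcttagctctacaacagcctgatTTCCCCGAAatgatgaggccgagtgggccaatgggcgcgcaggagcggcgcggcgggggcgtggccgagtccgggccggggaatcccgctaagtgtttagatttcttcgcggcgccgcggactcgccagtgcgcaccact
Gbp2: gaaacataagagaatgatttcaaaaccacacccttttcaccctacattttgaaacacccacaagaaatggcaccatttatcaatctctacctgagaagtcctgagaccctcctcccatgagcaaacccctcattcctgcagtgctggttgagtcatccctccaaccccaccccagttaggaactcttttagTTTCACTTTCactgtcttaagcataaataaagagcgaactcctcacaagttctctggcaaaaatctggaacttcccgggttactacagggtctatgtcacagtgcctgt
Serpina3g: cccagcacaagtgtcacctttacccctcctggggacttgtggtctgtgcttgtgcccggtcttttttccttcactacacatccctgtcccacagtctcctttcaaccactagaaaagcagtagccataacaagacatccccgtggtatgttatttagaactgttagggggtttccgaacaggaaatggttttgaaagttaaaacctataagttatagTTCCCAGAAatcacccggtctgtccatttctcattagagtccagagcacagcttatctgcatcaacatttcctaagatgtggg
Ifitm3: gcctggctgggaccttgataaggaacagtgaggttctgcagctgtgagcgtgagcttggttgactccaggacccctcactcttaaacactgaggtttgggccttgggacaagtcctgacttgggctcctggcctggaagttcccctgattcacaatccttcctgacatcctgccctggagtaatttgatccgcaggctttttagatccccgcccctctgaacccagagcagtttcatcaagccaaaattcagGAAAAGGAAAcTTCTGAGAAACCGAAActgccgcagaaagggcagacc
The Irf1 and Serpina3g windows shown held 1 GAS match each, the Gbp2 window 1 ISRE match, and the Ifitm3 window 1 GAS and 2 ISRE matches. Irf1 has 2 windows, and the one not shown held neither motif. A match is a description of letters and not a measured site.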

How the data were processed

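Each of 2 libraries gave a matrix of raw UMI counts, deposited by the authors and not normalized, per the file headers. The headers name software version 3.0.2 (distal) and cellranger-6.0.0 (niche). Per the submitters' processing notes, RSEM, Bowtie2, Seurat 4.1.1 and Cell Ranger 3.02 and the builds GRCm38 and mm10 served, with no step given. Of the gene rows, 29413 had the same Ensembl identifier in both libraries and were compared. Coordinates are from GENCODE (GRCm38). Droplets whose RNA came from more than 1 cell were not called.

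UMIs of a gene were summed over the members of a library and given as CPM with exact Poisson intervals. Log2 ratios had 0.5 UMI added to each sum and exact conditional binomial intervals, shares had Clopper-Pearson intervals, and all were at 95%. No p-value was computed. Called genes had at least 40 UMIs (20 for lists) and a 2-fold difference. Named genes were the 12 highest and 12 lowest by the interval bound nearest 0, with at least 100 CPM in the higher library, without mitochondrial, ribosomal protein, haemoglobin, receptor segment, unnamed, rule and annotation-linked genes; a few genes that this rule selects are not reported here. The members and lists were chosen with earlier results of these data known. Software was pandas 2.3.3, matplotlib 3.10.9, scipy 1.17.1 and numpy 2.4.6 under Python 3.11.15, and the ratio and thinning steps were tested on simulated data. Thinning used 1 random draw. Other choices of rule, filter, scaling and weight were tried.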

Additional observations from a re-analysis of the deposited data

How the results depend on the processing

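No paired analysis was possible because each group is 1 library and no test was made. The ratio of shares, 0.372 by the rule, was 0.811, 0.205 and 0.141 with 1, 3 and 4 UMIs of Xcr1 and Clec9a, 3.95 without a macrophage maximum, and 0.151 after thinning; with Xcr1 it was 0.136, with few macrophage genes also 0.101, and thinned 0.106. The other alternatives gave 0.267 to 0.506. Counts of genes moved partly with the number compared. The 264 of 3105 genes higher in the niche became 482 of 5060, 136 of 1640 and 1994 of 11540 with minimums of 20, 80 and 1 UMIs, 174 of 2882 without annotation-linked genes, 138 of 2426 with 3 UMIs of the rule genes, and 99 of 2303 and 78 of 2112 in the 2 sets with Xcr1. The 241 genes lower became 490, 100 and 1583 with those minimums and 143 of 1992 without members that held 3 or more mitosis UMIs, where the replication median was 0.78 and the immediate early median -1.03. The type I interferon median, 1.25, was 0.11 with 3 UMIs of the rule genes and -0.048 and -0.55 in the 2 sets with Xcr1, and the interferon gamma median, 1.94, was 0.80 and 0.43 there. The immediate early list turned from -0.33 to 0.23 and 0.45 in those sets. With few macrophage genes the identity list was 0.27, mitosis -0.11 and hypoxia -0.38. The sets with Xcr1 were chosen after seeing the data, and the cause of these changes was not tested. Only 7 niche members held Xcr1, and many values there rest on fewer than 20 UMIs.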
